A study of Mus musculus with 11 samples.

Results

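The Slc2, Slc5 and Slc16 solute carrier families were examined in lung group 2 innate lymphoid cells (ILC2) and in thymic DN3 cells of the mouse. Members were all genes whose symbol is Slc2a, Slc5a or Slc16a followed by a number, which gave 37 of the 57186 gene entries: 12 of Slc2, 11 of Slc5 and 14 of Slc16. The cells were sorted from untreated 14-day-old mice, all of the genotype Cd3giCreRosa26stopZsGreen, in which Cre expressed from the Cd3g locus removes a stop sequence ahead of ZsGreen in Rosa26. The groups were DN3 cells of the thymus, T cell precursors at the stage of T cell receptor beta rearrangement (3 libraries), ZsGreen-positive lung ILC2 (3 libraries) and ZsGreen-negative lung ILC2 (5 libraries). ZsGreen marks cells that expressed Cre or descend from a cell that did, so it reports history as well as present Cd3g use. Counts from mRNA sequencing libraries per gene were compared, and the labels do not say whether the libraries of a group are from different animals. A p-value here weighs a difference against the spread among these libraries, which could be technical.

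SLC2 proteins, called GLUT, let hexoses or urate pass the membrane down their gradient. SLC5 proteins draw sugars, myo-inositol, vitamins, choline or iodide into the cell together with sodium. SLC16 proteins, called MCT, move lactate, pyruvate and ketone bodies with a proton, while several members carry aromatic amino acids or creatine, or have no settled substrate. In lymphocytes GLUT1 and GLUT3 are the familiar routes for glucose entry, and MCT1 and MCT4 the familiar routes for lactate.

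Libraries held 5951494 to 7745062 counts in DN3, 5762491 to 17627469 in ZsGreen-positive ILC2 and 4495260 to 14424313 in ZsGreen-negative ILC2, which made 1 count worth 0.0567 to 0.222 CPM, the unit of counts scaled to the library total. Levels below are CPM after TMM scaling over all 11 libraries, unless CPM per kb of exon is stated. The ILC2 markers, 13 genes, summed to between 387 and 402 CPM in DN3, with Il1rl1, Klrg1, Areg and Il13 at 0, against 11508 to 13488 CPM in ZsGreen-positive and 11572 to 14111 CPM in ZsGreen-negative ILC2. The DN3 markers, 12 genes, summed to between 8456 and 8693 CPM in DN3, against 1362 to 1542 CPM in ZsGreen-positive ILC2, where Rag2, Ptcra and Dntt were at 0, and 1550 to 1714 CPM in ZsGreen-negative ILC2, where Rag2 and Ptcra were at 0. The labels give a date as batch, which all DN3 libraries share with no lung library. In both comparisons with DN3, batch and tissue cannot be told apart. In bulk RNA, fewer cells that express a gene and less RNA per cell cannot be told apart.

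Of the 37 transporters, 18 passed the filter on low counts in the fit with DN3. Relative to ZsGreen-negative ILC2, 6 of the 18 rose in DN3, where 35.5% of the 15132 genes tested were called higher, and 11 fell, where 41.2% were called lower (edgeR quasi-likelihood test, Benjamini-Hochberg adjusted p under 0.05). Relative to ZsGreen-positive ILC2, 7 rose and 11 fell, where 34.8% and 40.3% of genes were called higher and lower. The DN3 libraries did not overlap those of ZsGreen-negative ILC2 in 17 of the 18 and those of ZsGreen-positive ILC2 in all 18, against 73.4% and 77.8% of all genes tested. DN3 differed from lung ILC2 in most genes of the transcriptome, so a high share of called transporters is near the background, and the results lie in which transporters moved and how far. All 5 tested GLUT genes fell in both comparisons, with a median log2 fold change of -1.69 against ZsGreen-negative ILC2, where the median over all genes was -0.10. The Slc16 genes divided, with 4 of 10 higher and 5 lower than in ZsGreen-negative ILC2, and 5 higher and 5 lower than in ZsGreen-positive ILC2. Of the 3 tested Slc5 genes, 2 rose and 1 fell in both comparisons. The filter keeps a gene that is high in 1 group alone, which fixes the direction of such a gene in advance. Slc5a9 and Slc16a5, both counted as higher, passed it only through DN3. Slc2a6, Slc16a11 and Slc16a13, counted as lower, passed it only through lung ILC2. Both comparisons use the same DN3 libraries.

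**Figure D1:**
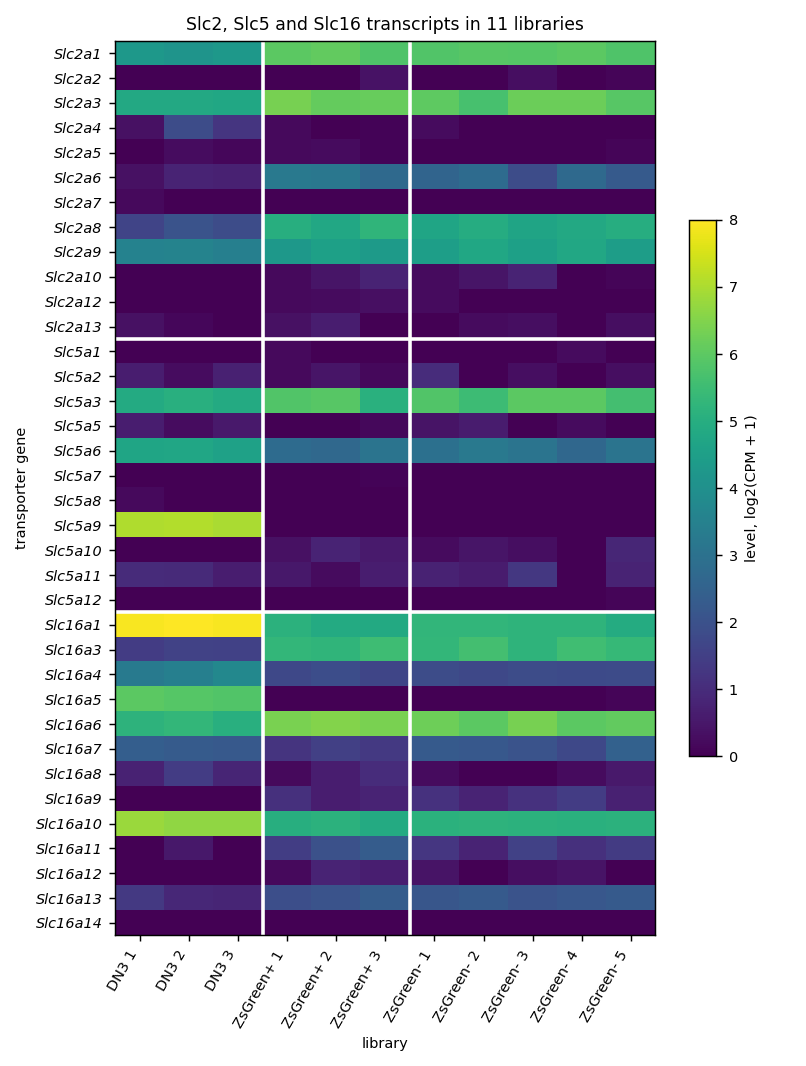
Level of the transporters (rows) in the 11 libraries (columns), as log2(CPM + 1) by colour, with white lines between families and between groups. Slc5a9 and Slc16a5 are bright in the 3 DN3 libraries and dark in the 8 lung libraries, while Slc16a3 and Slc2a8 show the reverse order of brightness.

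Slc5a9 (ENSMUSG00000028544) encodes SGLT4, a sodium-coupled carrier known for mannose and fructose. It held 938, 1267 and 1117 counts in the DN3 libraries, which is 131, 134 and 126 CPM, and not a single count in any of the 3 ZsGreen-positive or 5 ZsGreen-negative libraries. The DN3 libraries lay within 10 CPM of each other, and no lung library overlapped them. Against a floor of 3 counts over the group, Slc5a9 was at least 1253-fold higher in DN3 than in ZsGreen-positive ILC2 and at least 1519-fold higher than in ZsGreen-negative ILC2 (edgeR adjusted p = 7.92e-17 for the comparison with ZsGreen-negative ILC2). The gene passed the filter on low counts only through DN3. No exon base of Slc5a9 was shared with another gene in the GENCODE annotation at hand. Of its neighbours on the chromosome, Spata6 had 64.9 CPM in DN3, 75.5 CPM in ZsGreen-positive and 75.5 CPM in ZsGreen-negative ILC2, and Skint8 had 5 counts over the DN3 libraries and 0 in lung.

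Slc16a5 (ENSMUSG00000045775) encodes MCT6, a member of the monocarboxylate family that does not carry lactate. Its level was 61.8, 57.9 and 56.2 CPM in DN3, 0 in every ZsGreen-positive library, and 0 in ZsGreen-negative libraries apart from 1 count in replicate 5. The groups therefore stood apart with no intermediate library. The fold was at least 563 against ZsGreen-positive ILC2. Against ZsGreen-negative ILC2, the ratio of summed counts scaled by library size was 2040 (edgeR adjusted p = 1.18e-17). Its 95% counting interval of 366 to 80634 covers counting error only. Slc16a5 also passed the filter only through DN3. Its neighbour Trim80 had 27 counts over the DN3 libraries and 0 in lung, and its other neighbour Armc7 averaged 38.5 ± 1.98 CPM in DN3, 13.1 ± 1.39 CPM in ZsGreen-positive and 10.8 ± 1.09 CPM in ZsGreen-negative ILC2 (SD, n = 3, 3 and 5).

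The lactate carriers took opposite directions. Slc16a1 (ENSMUSG00000032902) encodes MCT1, the high-affinity carrier of lactate, pyruvate and ketone bodies that works in either direction. Slc16a3 (ENSMUSG00000025161) encodes MCT4, known for lactate export from highly glycolytic cells and as a target of hypoxia-inducible factor (HIF). RefSeq promoter windows of these carriers and of the glucose carrier gene Slc2a1 are printed because Slc16a3 and Slc2a1 are known targets of HIF, Slc16a1 is a known target of MYC, and the carriers did not move together here. The windows are from GRCm38.p6, run from 250 bases before to 50 bases after the annotated start, and lie on the plus strand at chr3:104638414-104638713 for Slc16a1, chr11:120948817-120949116 for Slc16a3 and chr4:119108495-119108794 for Slc2a1. Capitals mark the letters ACGTG, a form of the core of the HIF element, on either strand. Other forms of that core, GCGTG among them, were not searched. Capitals also mark CACGTG, the E-box core read by MYC and related factors, which contains ACGTG on each strand.
Slc16a1: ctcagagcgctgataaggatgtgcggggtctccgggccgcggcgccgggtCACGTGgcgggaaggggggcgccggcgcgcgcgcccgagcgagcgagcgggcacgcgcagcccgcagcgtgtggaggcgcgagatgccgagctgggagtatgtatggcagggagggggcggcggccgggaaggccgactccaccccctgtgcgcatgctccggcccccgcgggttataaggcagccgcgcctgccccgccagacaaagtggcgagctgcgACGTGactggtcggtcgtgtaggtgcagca
Slc16a3: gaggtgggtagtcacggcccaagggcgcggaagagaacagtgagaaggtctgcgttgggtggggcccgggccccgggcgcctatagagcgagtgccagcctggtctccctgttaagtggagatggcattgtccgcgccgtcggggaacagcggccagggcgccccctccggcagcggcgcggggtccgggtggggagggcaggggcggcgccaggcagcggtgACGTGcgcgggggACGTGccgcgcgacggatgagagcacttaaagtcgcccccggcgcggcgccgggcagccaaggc
Slc2a1: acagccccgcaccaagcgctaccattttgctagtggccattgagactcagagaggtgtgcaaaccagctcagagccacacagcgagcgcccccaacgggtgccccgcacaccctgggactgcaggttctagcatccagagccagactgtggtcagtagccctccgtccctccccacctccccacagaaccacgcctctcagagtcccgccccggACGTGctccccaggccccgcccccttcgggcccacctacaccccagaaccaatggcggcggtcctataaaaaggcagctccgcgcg
Slc16a1 held CACGTG with its first base at position -200 and ACGTG at 21, Slc16a3 held ACGTG at -27 and -14, and Slc2a1 held it at -36, counted from the start. Searched on both strands, ACGTG stood in 19.6% and CACGTG in 7.15% of the 32851 RefSeq promoter windows of the same length. Among the 27 members matched in that table, 6 held ACGTG and 3 held CACGTG. A match describes letters only and shows no binding.

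Slc16a1 had 241, 256 and 244 CPM in DN3, against 34.7, 28.4 and 28.4 CPM in ZsGreen-positive ILC2 and 37.4, 37.9, 36.3, 35.6 and 29.5 CPM in ZsGreen-negative ILC2. All DN3 libraries lay far above all lung libraries. It rose 8.34-fold relative to ZsGreen-positive and 7.21-fold relative to ZsGreen-negative ILC2, a log2 fold change of 2.85 ± 0.09 (SE) in the second comparison (edgeR adjusted p = 1.65e-17). Slc16a3 had 1.68, 2.01 and 1.92 CPM in DN3, against 38.4, 37.04 and 44.4 CPM in ZsGreen-positive ILC2 and 38.6, 47.6, 36.3, 45.4 and 40.5 CPM in ZsGreen-negative ILC2. DN3 libraries were uniformly low and did not overlap either lung group. It was 20.7-fold lower in DN3 than in ZsGreen-positive ILC2 and 21.5-fold lower than in ZsGreen-negative ILC2, where the log2 fold change was -4.43 ± 0.17 (edgeR adjusted p = 2.43e-16). Per kb of exon, the level of Slc16a1 exceeded that of Slc16a3 by 153- to 173-fold in the DN3 libraries. The same ratio lay between 0.768 and 1.08 in ZsGreen-positive and between 0.875 and 1.20 in ZsGreen-negative libraries. Lung ILC2 thus held transcripts of MCT1 and MCT4 at similar levels per kb, and DN3 held almost only the transcript of MCT1.

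Slc16a7, the gene of MCT2, a pyruvate and lactate carrier of high affinity, was low everywhere, and its values are given in full although the naming rule did not take it, since they were chosen after being seen. It had 4.20, 3.91 and 3.73 CPM in DN3, against 1.31, 1.83 and 1.52 CPM in ZsGreen-positive ILC2 and 3.81, 3.61, 3.12, 2.33 and 4.61 CPM in ZsGreen-negative ILC2. DN3 overlapped the ZsGreen-negative libraries and lay above the ZsGreen-positive ones. The log2 fold change in DN3 was 1.39 ± 0.33 against ZsGreen-positive ILC2 (edgeR adjusted p = 0.000773) and 0.17 ± 0.28 against ZsGreen-negative ILC2 (edgeR adjusted p = 0.577). Slc16a8, the gene of MCT3 of the retinal pigment epithelium, averaged 1.06 CPM in DN3, 0.575 CPM in ZsGreen-positive and 0.157 CPM in ZsGreen-negative ILC2 and was too low to test. The sodium-coupled monocarboxylate carriers Slc5a8 and Slc5a12 had 1 and 0 counts over the DN3 libraries, 0 and 0 over the ZsGreen-positive libraries, and 0 and 1 over the ZsGreen-negative libraries.

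**Figure D2:**
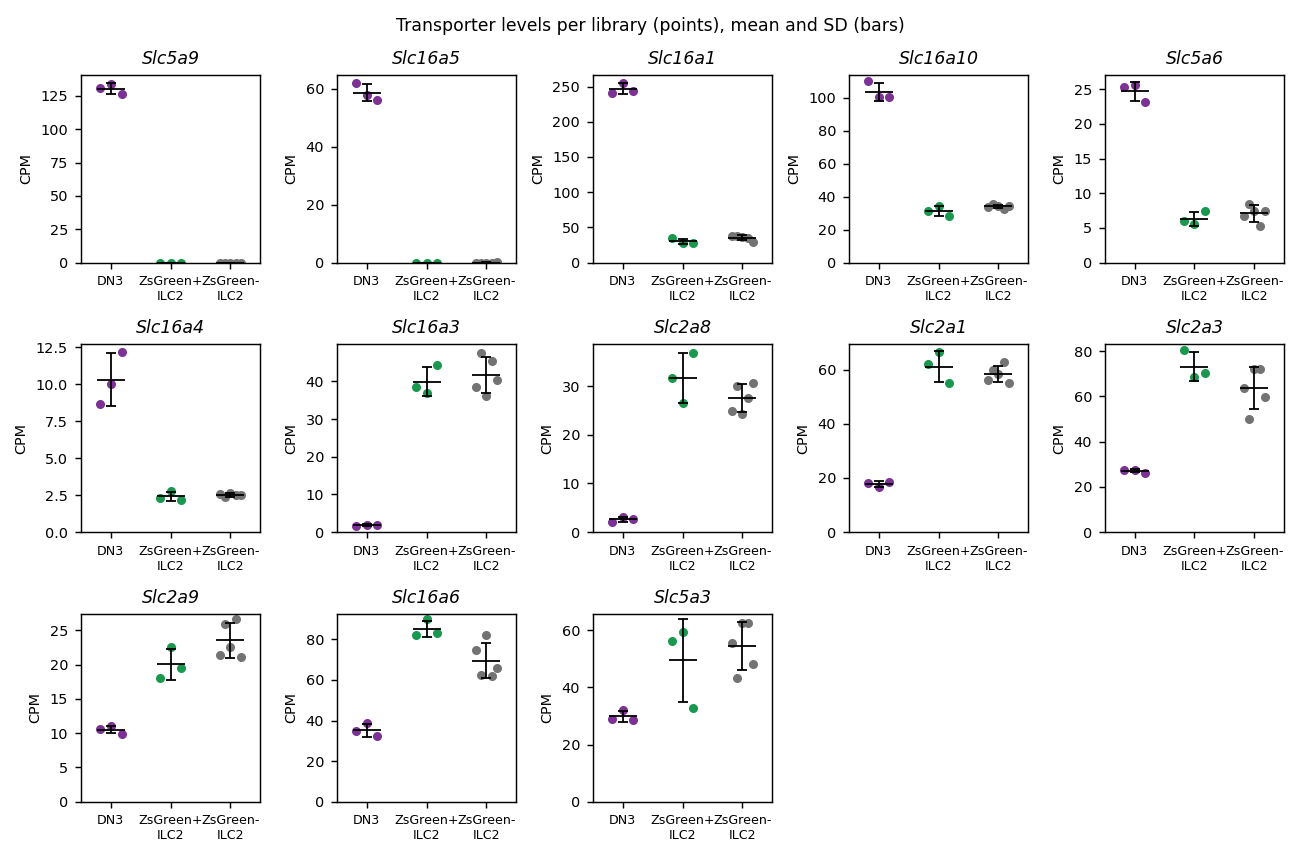
CPM of 13 transporters in each library (points), with the group mean (long bar) and SD (whiskers), on a separate axis from 0 for each gene. Slc5a9, Slc16a5, Slc16a1, Slc16a10, Slc5a6 and Slc16a4 are higher in the 3 DN3 libraries than in all lung libraries, and the other 7 genes are lower.

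Among the remaining Slc16 genes, Slc16a10, which encodes TAT1, a carrier of aromatic amino acids without a proton, had 110, 101 and 100.5 CPM in DN3. Its lung levels were 31.6, 34.5 and 28.5 CPM in ZsGreen-positive ILC2 and 33.9, 35.4, 34.3, 32.6 and 34.5 CPM in ZsGreen-negative ILC2. The DN3 libraries stood about as far above one lung group as above the other, and the gene rose 3.40-fold and 3.10-fold relative to ZsGreen-positive and ZsGreen-negative ILC2 (log2 1.63 ± 0.09 in the second comparison, edgeR adjusted p = 1.48e-13). Slc16a4, whose product has no settled substrate, had 8.67, 10.04 and 12.2 CPM in DN3, against 2.33, 2.75 and 2.18 CPM in ZsGreen-positive ILC2 and 2.59, 2.35, 2.64, 2.496 and 2.53 CPM in ZsGreen-negative ILC2. It rose by 2.06 ± 0.22 on the log2 scale relative to ZsGreen-negative ILC2 (edgeR adjusted p = 2.68e-08), with the DN3 libraries spread more widely than those of lung. Slc16a6, whose product MCT7 exports ketone bodies in zebrafish liver, had 34.8, 38.7 and 32.3 CPM in DN3, against 82.4, 89.9 and 83.4 CPM in ZsGreen-positive ILC2 and 74.7, 62.4, 82.1, 62.1 and 66.1 CPM in ZsGreen-negative ILC2. It fell by 1.23 ± 0.12 relative to ZsGreen-positive and by 0.94 ± 0.11 relative to ZsGreen-negative ILC2 on the log2 scale (edgeR adjusted p = 5.75e-08 in the second comparison). Exons of other genes, Amz2 and Arsg on the opposite strand among them, cover 23.5% of the exon bases of Slc16a6, and whether counting used the strand is not given in the sources used here, so its level is uncertain.

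Among the low Slc16 genes, Slc16a11 and Slc16a13 fell in DN3. Slc16a11, a liver-associated pyruvate carrier, and its chromosomal neighbour Slc16a13, a lactate carrier, averaged 0.141 and 1.06 CPM in DN3, against 2.89 and 3.29 CPM in ZsGreen-positive and 1.37 and 3.53 CPM in ZsGreen-negative ILC2. Both fell in both comparisons, by 2.99 ± 0.72 and 1.74 ± 0.34 on the log2 scale relative to ZsGreen-negative ILC2 (edgeR adjusted p = 0.000736 and 8.08e-05). All 4 DN3 counts of Slc16a11 lay in replicate 2, so without that library the gene was at 0 in DN3 and the size of its fall is uncertain. Slc16a11 and Slc16a13 passed the filter on low counts only through lung ILC2, which fixed the direction of their falls in advance. Slc16a9, linked to carnitine and creatine, had no count in DN3, against 23 counts over the ZsGreen-positive and 35 over the ZsGreen-negative libraries, and was at least 6.91-fold lower in DN3 than in ZsGreen-positive and at least 9.28-fold lower than in ZsGreen-negative ILC2, without a test. The creatine carrier Slc16a12 had 0 counts in DN3, 15 in ZsGreen-positive and 5 in ZsGreen-negative libraries, and Slc16a14 had no count in any library.

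The glucose carriers were lower in DN3. Slc2a1 (ENSMUSG00000028645) encodes GLUT1, the main basal glucose carrier of lymphocytes. It had 18.2, 16.6 and 18.4 CPM in DN3, against 62.0, 66.4 and 54.9 CPM in ZsGreen-positive ILC2 and 56.2, 59.7, 58.4, 62.7 and 55.2 CPM in ZsGreen-negative ILC2. The DN3 libraries lay well below every lung library, at 3.35-fold and 3.22-fold lower levels than ZsGreen-positive and ZsGreen-negative ILC2 (log2 -1.69 ± 0.11 in the second comparison, edgeR adjusted p = 2.51e-12). Slc2a3 (ENSMUSG00000003153) encodes GLUT3, which has a higher affinity for glucose. It had 27.6, 27.6 and 26.3 CPM in DN3, against 80.4, 68.8 and 70.3 CPM in ZsGreen-positive ILC2 and 63.7, 49.98, 72.3, 72.2 and 59.7 CPM in ZsGreen-negative ILC2. Again no lung library reached down to DN3, and Slc2a3 fell by 1.39 ± 0.13 and 1.19 ± 0.12 on the log2 scale relative to ZsGreen-positive and ZsGreen-negative ILC2 (edgeR adjusted p = 5.70e-09 in the second comparison). Per kb of exon, the ratio of Slc2a3 to Slc2a1 was 0.692 to 0.804 in DN3, 0.501 to 0.627 in ZsGreen-positive and 0.405 to 0.599 in ZsGreen-negative libraries.

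Slc2a8 (ENSMUSG00000026791), which encodes the intracellular hexose and trehalose carrier GLUT8, showed the widest gap of the tested Slc2 genes relative to ZsGreen-negative ILC2. It had 2.10, 3.17 and 2.60 CPM in DN3, against 31.7, 26.6 and 36.9 CPM in ZsGreen-positive ILC2 and 24.9, 30.0, 24.3, 27.6 and 30.7 CPM in ZsGreen-negative ILC2. The lung groups overlapped each other and lay far above DN3, where the gene was 11.7-fold lower than in ZsGreen-positive and 10.1-fold lower than in ZsGreen-negative ILC2 (log2 -3.34 ± 0.18 in the second comparison, edgeR adjusted p = 1.40e-13). Slc2a6, whose product GLUT6 sits on lysosomes, averaged 0.566 ± 0.250 CPM in DN3, 7.40 ± 1.49 CPM in ZsGreen-positive and 4.61 ± 1.38 CPM in ZsGreen-negative ILC2 (SD, n = 3, 3 and 5), and fell in both comparisons. Slc2a6 passed the filter on low counts only through lung ILC2, which fixed the direction of its fall in advance. Slc2a9, which encodes the urate carrier GLUT9, had 10.6, 10.99 and 9.94 CPM in DN3, against 18.1, 22.6 and 19.5 CPM in ZsGreen-positive ILC2 and 21.5, 26.0, 22.6, 26.6 and 21.1 CPM in ZsGreen-negative ILC2. Its fall was smaller, at -0.89 ± 0.15 relative to ZsGreen-positive and -1.12 ± 0.14 relative to ZsGreen-negative ILC2 on the log2 scale (edgeR adjusted p = 2.25e-07 in the second comparison). Slc2a4, the gene of the insulin-responsive carrier GLUT4, was too low to test and went the other way. It had 2, 25 and 12 counts in the DN3 libraries, against 2 over all ZsGreen-positive and 1 over all ZsGreen-negative libraries. The ratio of summed counts scaled by library size was 22.1 (5.71 to 189) to ZsGreen-positive and 53.5 (9.05 to 2167) to ZsGreen-negative ILC2. These counting intervals leave out the wide spread between the DN3 libraries. The remaining genes Slc2a2, Slc2a5, Slc2a7, Slc2a10, Slc2a12 and Slc2a13 did not exceed 1 CPM on average in any group.

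Within the sodium-coupled family, Slc5a6 encodes the carrier of biotin and pantothenate. It had 25.3, 25.7 and 23.2 CPM in DN3, against 5.97, 5.50 and 7.45 CPM in ZsGreen-positive ILC2 and 6.75, 8.48, 7.45, 5.33 and 7.44 CPM in ZsGreen-negative ILC2. DN3 stood clear of both lung groups, which overlapped each other, and Slc5a6 rose 3.91-fold relative to ZsGreen-positive and 3.56-fold relative to ZsGreen-negative ILC2 (log2 1.83 ± 0.16 in the second comparison, edgeR adjusted p = 5.55e-10). Exons of Atraid, on the opposite strand, cover 9.92% of its exon bases. Slc5a3, which encodes the myo-inositol carrier SMIT1 induced by osmotic stress, had 28.8, 32.1 and 28.7 CPM in DN3, against 56.4, 59.4 and 32.8 CPM in ZsGreen-positive ILC2 and 55.5, 43.5, 62.4, 62.7 and 48.4 CPM in ZsGreen-negative ILC2. ZsGreen-positive replicate 3 came close to the DN3 libraries without overlapping them. The gene fell by 0.67 ± 0.20 relative to ZsGreen-positive and by 0.83 ± 0.18 relative to ZsGreen-negative ILC2 on the log2 scale (edgeR adjusted p = 0.00764 and 0.000824). Slc5a1, Slc5a2, Slc5a5, Slc5a7, Slc5a8, Slc5a10, Slc5a11 and Slc5a12, which serve intestinal and renal glucose uptake, iodide, choline, monocarboxylates and inositol in other tissues, did not exceed 1 CPM on average in any group. Over all 3 families, 16 members stayed at or under 1 CPM on average in every group.

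**Figure D3:**
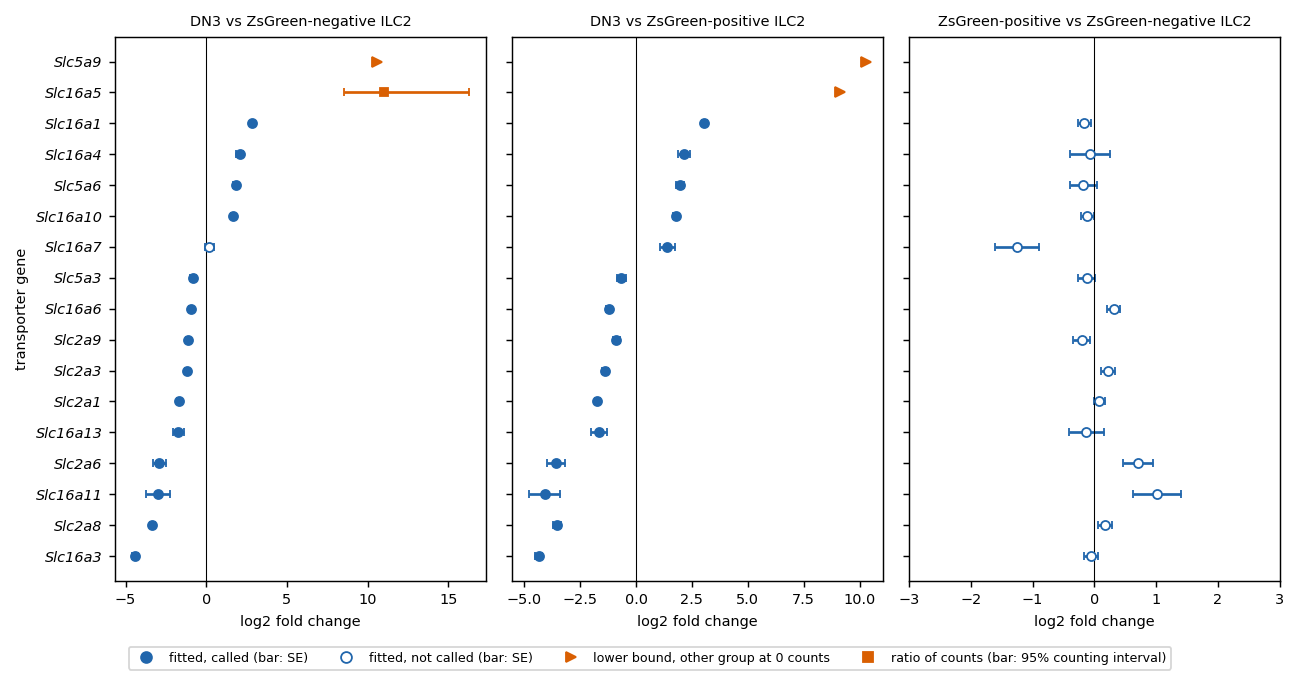
Log2 fold changes of tested transporters in DN3 against each lung group and in ZsGreen-positive against ZsGreen-negative ILC2. Blue circles are fitted values with bars of 1 SE, filled if called. Orange triangles are lower bounds against a group at 0 counts, and orange squares are ratios of counts, scaled by library size, with 95% counting intervals. The 5 Slc2 genes lie below 0 in both DN3 comparisons, Slc16a1 lies near 3 and Slc16a3 near -4, while the lung comparison stays close to 0 for most genes.

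Lengths were used to compare levels between genes. Summed over each family, the Slc2 genes reached 12.3 ± 0.37 CPM per kb in DN3, 43.9 ± 1.12 in ZsGreen-positive and 40.2 ± 1.96 in ZsGreen-negative ILC2 (SD, n = 3, 3 and 5). The Slc5 genes reached 34.7 ± 1.19 CPM per kb in DN3, 6.58 ± 1.05 in ZsGreen-positive and 7.34 ± 0.63 in ZsGreen-negative ILC2. The Slc16 genes reached 97.3 ± 2.26 CPM per kb in DN3, 40.7 ± 0.82 in ZsGreen-positive and 38.4 ± 1.82 in ZsGreen-negative ILC2. DN3 thus held less GLUT transcript and more SLC5 and SLC16 transcript per kb, with a few genes behind each sum.

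In DN3, Slc5a9 made up 72.5% ± 0.400 of the Slc5 sum per kb, Slc5a6 made up 17.8% ± 0.388 and Slc5a3 made up 7.89% ± 0.358. In ILC2, Slc5a3 led that family, with 67.9% ± 10.3 in ZsGreen-positive and 67.9% ± 7.65 in ZsGreen-negative libraries. Slc16a1 made up 57.4% ± 1.07 of the Slc16 sum in DN3, 16.9% ± 2.37 in ZsGreen-positive and 20.8% ± 1.57 in ZsGreen-negative ILC2. Slc16a6 led that family in lung, with 42.9% ± 1.73 in ZsGreen-positive and 37.04% ± 3.28 in ZsGreen-negative ILC2, against 7.42% ± 0.499 in DN3. Slc2a1 led the GLUT genes in every group, with 41.0% ± 3.39 in DN3, 39.6% ± 3.28 in ZsGreen-positive and 41.5% ± 0.709 in ZsGreen-negative ILC2, so the lower GLUT sum of DN3 came with a share of GLUT1 transcript within the replicate spread of lung. The share of Slc2a8 was 6.59% ± 1.15 in DN3, 22.6% ± 4.03 in ZsGreen-positive and 21.3% ± 2.38 in ZsGreen-negative ILC2. In order of level per kb, DN3 held Slc16a1 at 55.8, Slc5a9 at 25.2, Slc16a5 at 15.8 and Slc16a10 at 14.1 CPM per kb, and the last 2 lay close together. ZsGreen-positive ILC2 held Slc16a6 at 17.5, Slc2a1 at 17.4, Slc2a3 at 10.1 and Slc2a8 at 9.89 CPM per kb, and ZsGreen-negative ILC2 held Slc2a1 at 16.7, Slc16a6 at 14.2, Slc2a3 at 8.78 and Slc2a8 at 8.57 CPM per kb.

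**Figure D4:**
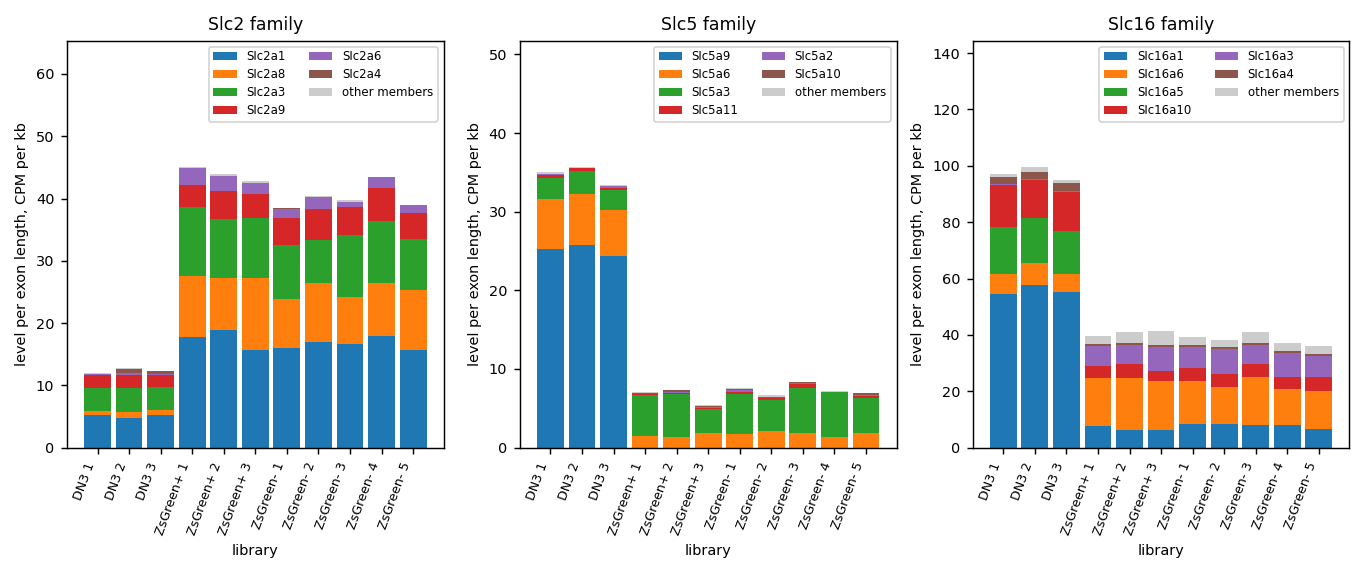
Stacked level per exon length (CPM per kb) of the genes of each family in every library, DN3 at the left, then ZsGreen-positive and ZsGreen-negative ILC2. The Slc5 bar of DN3 is mostly Slc5a9 and its Slc16 bar mostly Slc16a1, whereas Slc5a3 and Slc16a6 lead in lung.

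ZsGreen-positive and ZsGreen-negative ILC2 were compared in a fit of the 8 lung libraries that included the batch, where 16 of the 37 transporters were tested. None was called by edgeR, where 2.35% of the 13771 genes tested were called higher and 2.18% lower. An unadjusted edgeR p under 0.05 was found for 5 of the 16, beside 2317 of the 13771 genes tested. DESeq2 called 0 and limma voom called 1, Slc16a7, as lower. The median log2 fold change of the 16 was -0.06, beside -0.00 over all genes. In 2 transporters the groups did not overlap, Slc16a6 above and Slc16a7 below, where 5.27% and 5.00% of all genes stood apart upwards and downwards.

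Slc16a7 came nearest to the threshold, with a log2 fold change of -1.25 ± 0.35 (edgeR adjusted p = 0.0510). It passed the filter on low counts only through ZsGreen-negative ILC2, where it was higher, which fixed its direction in advance. Every ZsGreen-positive library was below every ZsGreen-negative library, on 44 counts in all ZsGreen-positive and 131 in all ZsGreen-negative libraries. Over 19 alternative analyses the log2 fold change lay between -1.46 and -1.03 with an adjusted p between 0.0256 and 0.629, and 7 of them called it. The log2 fold change was 0.31 ± 0.10 for Slc16a6 (edgeR adjusted p = 0.102), whose lowest ZsGreen-positive library, at 82.4 CPM, barely cleared the highest ZsGreen-negative library, at 82.1 CPM. Without replicate 3 of ZsGreen-negative ILC2, Slc16a6 was called higher by 0.36 (edgeR adjusted p = 0.0339) and Slc16a7 lower at -1.27 (edgeR adjusted p = 0.0480).

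RNA of lung structural cells differed between these libraries as well. All 32 structural markers had counts in both lung groups and summed to between 1352 and 3339 CPM in ZsGreen-positive and between 525 and 1513 CPM in ZsGreen-negative libraries, against 230 to 263 CPM in DN3, where 9 were at 0. Their mean log2(CPM + 1) was 4.09 ± 0.43 in ZsGreen-positive and 3.17 ± 0.47 in ZsGreen-negative libraries (SD, n = 3 and 5), with ZsGreen-negative replicate 3 highest of its group at 3.88, and 5 of 28 tested markers were called higher. The 15 markers of macrophages and dendritic cells summed to between 143 and 431 CPM in ZsGreen-positive and between 76.1 and 309 CPM in ZsGreen-negative libraries. The 10 markers of neutrophils and mast cells summed to between 96.3 and 141 CPM in ZsGreen-positive libraries, where Mcpt4, Cma1 and Tpsb2 were at 0, and between 142 and 242 CPM in ZsGreen-negative libraries, where Mcpt4 and Tpsb2 were at 0. Of the 3 tested, 1 was called lower, while their median log2 fold change was 1.21. The part of these cells in the lung values was not tested. Once the structural score entered the model, Slc16a7 had a log2 fold change of -1.28 and Slc16a6 one of 0.07, with adjusted p of 0.629 and 0.998 by edgeR.

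**Figure D5:**
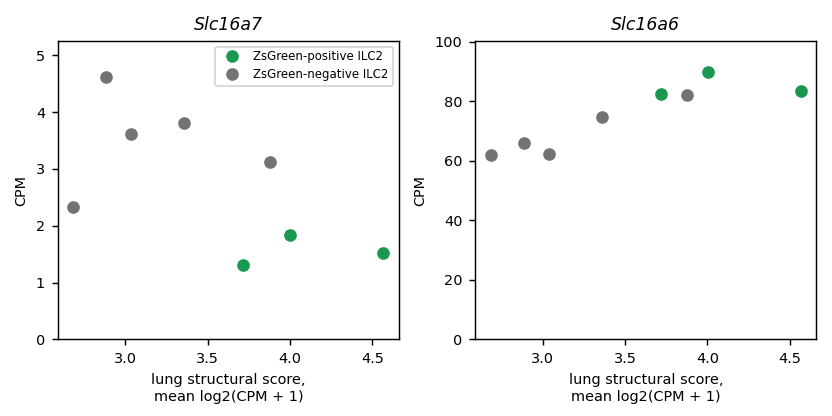
CPM of Slc16a7 and Slc16a6 in the 8 lung libraries against each library's mean log2(CPM + 1) over the lung structural markers. ZsGreen-negative replicate 3, at a score of 3.88, lies just below the ZsGreen-positive libraries for Slc16a6 and above them for Slc16a7.

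The abundant transporters gave narrower estimates of the lung difference. The log2 fold change in ZsGreen-positive ILC2 was 0.08 ± 0.09 for Slc2a1, 0.22 ± 0.11 for Slc2a3, 0.17 ± 0.12 for Slc2a8, -0.16 ± 0.11 for Slc16a1, -0.06 ± 0.11 for Slc16a3, -0.12 ± 0.11 for Slc16a10 and -0.13 ± 0.14 for Slc5a3 (edgeR adjusted p between 0.354 and 0.863). Slc2a6 at 0.71 ± 0.25 and Slc16a11 at 1.02 ± 0.39 were larger but had wider errors (edgeR adjusted p = 0.126 and 0.165). Slc2a6 had 196 counts over the ZsGreen-positive and 158 over the ZsGreen-negative libraries, and Slc16a11 had 94 and 49. Slc16a11 passed the filter on low counts only through ZsGreen-positive ILC2, where it was higher, which fixed its direction in advance. With the structural score in the model the log2 fold changes were 1.24 for Slc2a6 and 0.32 for Slc16a11 (edgeR adjusted p = 0.298 and 0.998).

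Genes that act beside these carriers were taken from 7 lists, chosen with earlier results of these data known. Of 21 tested monocarboxylate partners and enzymes, 6 rose and 9 fell in DN3 relative to ZsGreen-negative ILC2. Over all genes tested 35.5% were called higher and 41.2% lower, and nothing particular to this list or those that follow, with few genes each, is read from their counts. Emb, which encodes embigin, a chaperone that brings MCT proteins to the membrane, averaged 61.5 ± 2.91 CPM in DN3, 846 ± 41.6 in ZsGreen-positive and 1019.6 ± 87.4 CPM in ZsGreen-negative ILC2. It fell by 3.75 ± 0.11 relative to ZsGreen-positive and by 4.02 ± 0.11 relative to ZsGreen-negative ILC2 on the log2 scale (edgeR adjusted p = 9.17e-19 in the second comparison). Nptn, which encodes the related chaperone neuroplastin, fell to 59.0 CPM in DN3, against 153 CPM in ZsGreen-positive and 171 CPM in ZsGreen-negative ILC2. Ldhb, the lactate dehydrogenase subunit of lactate-using tissues, rose to 58.7 CPM in DN3, against 20.8 CPM in ZsGreen-positive and 15.4 CPM in ZsGreen-negative ILC2, and Bdh1, which oxidises the ketone body beta-hydroxybutyrate, rose to 58.6 CPM, against 25.03 CPM in ZsGreen-positive and 27.7 CPM in ZsGreen-negative ILC2. Other genes of this list, Bsg and Ldha among them, were not taken by the naming rule, and their levels are not given.

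Of 16 tested hexose entry enzymes, 5 rose and 8 fell in DN3 relative to ZsGreen-negative ILC2, beside 35.5% higher and 41.2% lower over all genes. Hk2, the inducible hexokinase, averaged 26.0 ± 0.492 CPM in DN3, 111 ± 11.2 in ZsGreen-positive and 166 ± 25.9 CPM in ZsGreen-negative ILC2 (log2 -2.64 ± 0.13 in DN3 relative to ZsGreen-negative ILC2, edgeR adjusted p = 6.47e-14). Galk1, which phosphorylates galactose, averaged 92.9 ± 5.04 CPM in DN3, 9.01 ± 1.92 in ZsGreen-positive and 11.2 ± 2.47 CPM in ZsGreen-negative ILC2. Sord, the sorbitol dehydrogenase that forms fructose, averaged 52.0 ± 4.37 CPM in DN3, 8.51 ± 1.21 in ZsGreen-positive and 7.72 ± 1.91 CPM in ZsGreen-negative ILC2. Of 17 genes of GLUT traffic and turnover, 4 rose and 7 fell in the same comparison, with the same all-gene shares of 35.5% and 41.2%, and 2 rose without DN3 replicate 3. Arrdc4, an arrestin that takes GLUT1 off the membrane, averaged 8.80 CPM in DN3, 25.9 CPM in ZsGreen-positive and 31.7 CPM in ZsGreen-negative ILC2.

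Of 7 tested regulators of transporter transcription, 5 fell in DN3 relative to ZsGreen-negative ILC2 and 1 rose, beside 41.2% lower and 35.5% higher over all genes, which are also the shares for the other lists named next. Hif1a, the oxygen-regulated HIF subunit, averaged 96.1 ± 3.39 CPM in DN3, 260 ± 21.6 in ZsGreen-positive and 362 ± 47.6 CPM in ZsGreen-negative ILC2, and its relative Epas1 averaged 0.0818 CPM in DN3, 375 CPM in ZsGreen-positive and 421 CPM in ZsGreen-negative ILC2. Myc is on this list but was not among the genes the naming rule took, so its level is not given. Of 6 tested thyroid hormone and aromatic amino acid genes, 3 rose and 3 fell. Slc7a8, which encodes the amino acid carrier LAT2, averaged 0.455 ± 0.177 CPM in DN3, 465.6 ± 57.9 in ZsGreen-positive and 574 ± 97.4 CPM in ZsGreen-negative ILC2. Dio2, which activates thyroid hormone, averaged 9.36 CPM in DN3, 0.539 CPM in ZsGreen-positive and 0.710 CPM in ZsGreen-negative ILC2. Of 17 tested inositol, choline and sodium gradient genes, 3 rose and 9 fell, with Slc44a2, a choline carrier, at 258 CPM in DN3, 141 CPM in ZsGreen-positive and 131 CPM in ZsGreen-negative ILC2. Of 8 other sugar carriers, 3 rose and 3 fell, with Slc37a3 at 6.74 CPM in DN3, 101 CPM in ZsGreen-positive and 103 CPM in ZsGreen-negative ILC2.

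The median log2 fold change relative to ZsGreen-negative ILC2 was -0.12 for the monocarboxylate partners, -0.32 for the hexose entry enzymes, -0.14 for GLUT traffic, -0.70 for the regulators, -0.15 for the thyroid hormone and aromatic amino acid genes, -0.36 for the inositol, choline and sodium gradient genes and 0.19 for the other sugar carriers, beside -0.10 over all genes. Relative to ZsGreen-positive ILC2, where 34.8% of all genes were called higher and 40.3% lower, 6 monocarboxylate partners rose and 10 fell, 5 hexose entry enzymes rose and 7 fell, 3 GLUT traffic genes rose and 7 fell, and 4 regulators fell. In the same comparison 3 inositol, choline and sodium gradient genes rose and 8 fell, 3 thyroid hormone and aromatic amino acid genes rose and 2 fell, and 3 other sugar carriers rose and 3 fell.

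Between the lung groups few genes of the lists were called. Genes called by edgeR were Adpgk and Hk2 of 16 hexose entry enzymes, Rhoq and Tbc1d4 of 17 GLUT traffic genes, Atp1b1 of 16 inositol, choline and sodium gradient genes, Slc7a5 of 4 thyroid hormone and aromatic amino acid genes and Hif1a of 7 regulators, and each was lower in ZsGreen-positive ILC2. Over the 13771 genes tested, 2.35% were called higher and 2.18% lower. With few genes per list, nothing particular to a list is read from these counts. Adpgk, a glucokinase that uses ADP, averaged 223 ± 8.73 CPM in ZsGreen-positive and 302 ± 6.56 CPM in ZsGreen-negative ILC2 (log2 -0.43 ± 0.08, edgeR adjusted p = 0.00265), and Hk2 changed by -0.56 ± 0.12 (edgeR adjusted p = 0.0132). Hif1a changed by -0.43 ± 0.09 (edgeR adjusted p = 0.00852), and Slc7a5, which encodes LAT1, by -0.54 ± 0.10 (edgeR adjusted p = 0.00234). The hexose entry count was 1 without ZsGreen-positive replicate 1 or 3 or ZsGreen-negative replicate 5. The GLUT traffic count was 0 without those same libraries, and 1 without ZsGreen-positive replicate 2 or ZsGreen-negative replicate 1. The count of inositol, choline and sodium gradient genes was 0 without ZsGreen-positive replicate 2 or 3 or ZsGreen-negative replicate 5. The regulator count was 0 without ZsGreen-positive replicate 1, and the counts of all of these lists were 0 once the structural score entered the model. In that model the calls over all genes went from 323 higher and 300 lower to 17 and 38, so the loss was not particular to these lists. The score itself averaged 4.09 in ZsGreen-positive and 3.17 in ZsGreen-negative libraries, and its part in the calls was not tested.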

How the data were processed

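Counts per gene of 11 mouse libraries were analysed as the authors deposited them, as whole-number read counts in 2 tables whose lung columns were identical. RNA came from a PicoPure kit and libraries from a Watchmaker mRNA kit, per the labels' protocols; the submitters' processing notes name GRCm39 and DESeq2, while for the aligner, annotation and strand use the sources used here give nothing. Over 16 pairs of replicates the chi-square per degree of freedom was 1.77 to 15.3, so no pair agreed within sampling noise.

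One member counted among the 37 is not reported here. The members and lists were chosen with earlier results of these data known. Tests were run on all genes with edgeR 4.0.16 in R 4.3.3 (quasi-likelihood F test, TMM, robust dispersions, a low-count filter by group, filterByExpr, set to 10), and p-values were adjusted by Benjamini-Hochberg and called under 0.05. In the lung comparison, the fit used 8 libraries and the batch date as a covariate; the comparisons with DN3 used all 11 libraries and no batch. DESeq2 1.42.0, limma voom 3.58.1, other scalings and filters, left-out libraries, a replicate block, the 2024 batch alone and a lung structural covariate were alternatives. The fits were tested on simulated data. CPM were scaled by TMM over 11 libraries. Exon lengths per kb and exon overlaps came from the GENCODE vM21 annotation of GRCm38, matched by gene ID for 37 of 37 members. Promoter windows came from RefSeq GRCm38.p6, which is not the build of the counts. A gene at 0 in a group was given a floor of 3 counts over that group, and ratios on 1 to 3 counts an exact 95% counting interval.

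Members in every-library detail were those called in the lung comparison, the 6 of largest log2 fold change per direction called in both DN3 comparisons and reaching 5 CPM in the higher group, and those with a group mean of at least 50 CPM. Up to 4 genes of smallest p per list and comparison could be named.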

Additional observations from a re-analysis of the deposited data

Results flagged for a closer look

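In ZsGreen-negative ILC2, 1 of 15 transporters examined had a library set apart from the other 4 by more than 0.71 of the group's whole range, and chance flags about 1 in 20 such groups. Slc16a1 had 29.5 CPM in ZsGreen-negative replicate 5, below the other ZsGreen-negative libraries at 35.6 to 37.9 CPM and within the range of the ZsGreen-positive libraries. Replicate 5 is the only ZsGreen-negative library of the 2025 batch and the deepest of its group, at 14424313 counts. ZsGreen-positive replicate 3, of the same batch, had 28.4 CPM. The part of the batch in this value was not tested.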

How the results depend on the processing

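All reported member results of the DN3 comparisons kept their direction and side of the threshold, in 271 of 271 alternative values against ZsGreen-negative and 238 of 238 against ZsGreen-positive ILC2. Counts of called members there were 8 higher and 14 lower, or 8 higher and 15 lower, without a filter on low counts, since more members are then tested. Between the lung groups, 270 of 285 values were unchanged in call and direction. The count of lower members, 0 as reported, was 1 under limma voom, RLE size factors, no filter, a filter of at least 1 CPM in 3 libraries, and the fit of all 11 libraries without batch, and the count of higher members was 1 without a filter. Leaving out a library gave 0 to 2 higher and 0 to 1 lower members, with 2 higher and 1 lower without ZsGreen-negative replicate 3 and 1 lower without ZsGreen-negative replicate 4. Log2 fold changes near 0 changed sign for Slc5a3 (range over left-out libraries -0.23 to 0.0580, 2024 batch alone 0.0538) and Slc16a4 (-0.17 to 0.0189, 2024 batch alone 0.0142). With the structural covariate, Slc16a3 reversed to 0.0239. The sign changes of Slc5a3 and Slc16a4 came only without ZsGreen-negative replicate 5, without ZsGreen-positive replicate 3 and in the 2024 batch alone. The 2025 batch held only those replicates. With the batch as a term, leaving out either gives the other no weight in the lung comparison. The cause of these shifts was not tested.

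Once each gene's group mean was subtracted, the deviations of same-numbered libraries correlated between -0.0901 and 0.0728, so the numbers gave no sign of a pairing. In lung, number 3 joins a ZsGreen-positive library of 2025 with a ZsGreen-negative library of 2024. Whether libraries of the lung groups share animals was not tested. With a replicate block (in lung, in place of the batch term) the lung count of called members stayed 0 and the DN3 counts stayed 6 and 11, and 7 and 11. Over all genes, 323 higher and 300 lower in ZsGreen-positive ILC2 became 130 and 103 with a replicate block in place of the batch term, 2 changes that were not separated, 621 and 460 without a filter, 145 and 153 in the 2024 batch alone, 17 and 38 with the structural covariate, 146 and 140 without ZsGreen-negative replicate 5, 149 and 172 without ZsGreen-positive replicate 2, and 148 and 154 without ZsGreen-positive replicate 3. The settings without ZsGreen-negative replicate 5, without ZsGreen-positive replicate 3 and of the 2024 batch alone compare the same 2024 libraries. Scaling by the upper quartile shifted the all-gene median by 0.11 (log2) in DN3 against ZsGreen-negative ILC2. It gave 5858 higher and 5827 lower in place of 5369 and 6240, and changed no member's call. Depth limits the members under about 1 CPM, which could not be tested.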

Other observations

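The gene next to Slc16a1 in RefSeq order moved against it. Tafa3, which encodes a small secreted protein of the TAFA family, had no count in any DN3 library, against 98.3 ± 10.05 CPM in ZsGreen-positive and 84.98 ± 7.19 CPM in ZsGreen-negative ILC2 (SD, n = 3 and 5), whereas Slc16a1 was highest in DN3. Lrig2, on the other side of Slc16a1, averaged 27.9 CPM in DN3, 35.98 CPM in ZsGreen-positive and 36.5 CPM in ZsGreen-negative ILC2. Next to Slc16a3, Ccdc57 also moved against its neighbour, with 13.6 CPM in DN3, 1.17 CPM in ZsGreen-positive and 1.52 CPM in ZsGreen-negative ILC2. These neighbours were chosen after their values were seen.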
